A study of Mus musculus with 6 samples.

Results

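Matrix proteases and their inhibitors were followed gene by gene through the cells of the mouse uterine tube, or oviduct, the duct that carries the egg and the early embryo from the ovary to the uterus. The genes were chosen by symbol alone, as every listed gene named Mmp, Adamts, Adamtsl or Timp with its number; a letter may follow the number of an Mmp gene. This gave 51 of the 50559 genes listed. Of these, 23 were Mmp genes, 19 were Adamts genes, 5 were Adamtsl genes and 4 were Timp genes. The Mmp genes encode zinc proteases, secreted or anchored in the cell membrane, that cut collagens and other proteins of the extracellular matrix. The Adamts genes encode secreted zinc proteases with thrombospondin repeats, among them enzymes that cleave versican and aggrecan and enzymes that trim procollagens, while the Adamtsl proteins resemble them without a protease domain. The Timp proteins are secreted inhibitors of these enzymes, and in the female reproductive tract the balance of proteases and inhibitors is known for remodelling tissue over the cycle and at ovulation.

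The study profiled single cells of tubes from groups of adult C57BL6 females in estrus, with each tube cut into a proximal section, on the side of the uterus, and a distal section, on the side of the ovary. The labels name no treatment, transgene or mutation in either section. There were 3 proximal libraries, with the title numbers 2, 3 and 4, and 3 distal libraries, with the title numbers 1, 2 and 3. Each library pooled 1 section of a group of mice, so a spread between libraries is a spread between pools and not between single animals. The tissue was digested with collagenase IV and hyaluronidase for 1 h at 37 °C before further enzyme steps and removal of dead cells, and 3' transcript ends were counted in droplets as unique molecular identifiers (UMIs).

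The proximal libraries held far less data: 325 to 1133 cells were kept per proximal library, with median depths of 730 to 3385 UMIs per cell, against 4115 to 6652 cells and 2948 to 4648 UMIs per cell in the distal libraries. Proximal library 3 was the smallest, with 426707 UMIs in all. The median mitochondrial share of the kept cells was 1.62 to 1.87% in proximal and 2.31 to 3.56% in distal libraries, without overlap, and the filters on cells removed 359 of 1189 barcodes of proximal library 2, against 1 of 327 and 11 of 1154 in the other proximal libraries. Their part in the regional results was not tested. Any pair of libraries shared 0 to 58 cell barcodes, at most 1.83% of the smaller library. Cells were grouped into classes without the 51 genes, and each class was named for its likeness to a cell type by fixed markers (fibroblast-like, ciliated-like and so on; the short names are used below). In distal cells, 7 of 8 fibroblast markers, 10 of 10 ciliated markers, 8 of 8 smooth muscle markers, 8 of 8 pericyte markers and 6 of 8 markers each of epithelium and blood endothelium were highest in the class that carries the name, epithelium being read in the non-ciliated class. Levels are given as CPM (counts scaled to a common library total): the UMIs of a gene summed over the cells of a class in 1 library and scaled to the total UMIs of that class. They compare cells for 1 gene at a time, since 3' counts do not rank genes against each other.

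The 51 genes together took 181150 of the 81011218 UMIs in the 18466 cells kept, or 0.224%. Mmp1a and Mmp21 had no UMI, and 13 genes, these included, had fewer than 100. Among the 38 genes with at least 100 UMIs, the class with the highest distal mean was fibroblasts for 11, mesothelium, pericytes and smooth muscle for 5 each, blood endothelium and ciliated cells for 4 each, and lymphocytes and the few granulosa- or luteal-like cells for 2 each. The 100 UMIs were counted over all cells, so some of these ranks rest on few counts. Adamtsl4 averaged 13.1 CPM in lymphocytes, where 3 counts stand for 14.9 to 35.5 CPM, and 10.7 CPM in pericytes. Mesothelial means rest on distal libraries 1 and 3, with 39 and 14 cells. Adamts19 and Adamts3 averaged 16.2 and 14.4 CPM there, where 3 counts stand for 10.8 and 21.6 CPM. Adamts10 was nearly level in blood endothelium and fibroblasts (57.8 and 55.2 CPM). A mean of at least 20 CPM in fibroblasts or their subclusters, either epithelial class, smooth muscle or blood endothelium was reached by 30 genes. The 21 that stayed below were Adamts7, 8, 13, 14, 16, 17, 18 and 20 and Mmp1a, 1b, 7, 9, 10, 12, 13, 20, 21, 24, 25, 27 and 28.

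**Figure D1:**
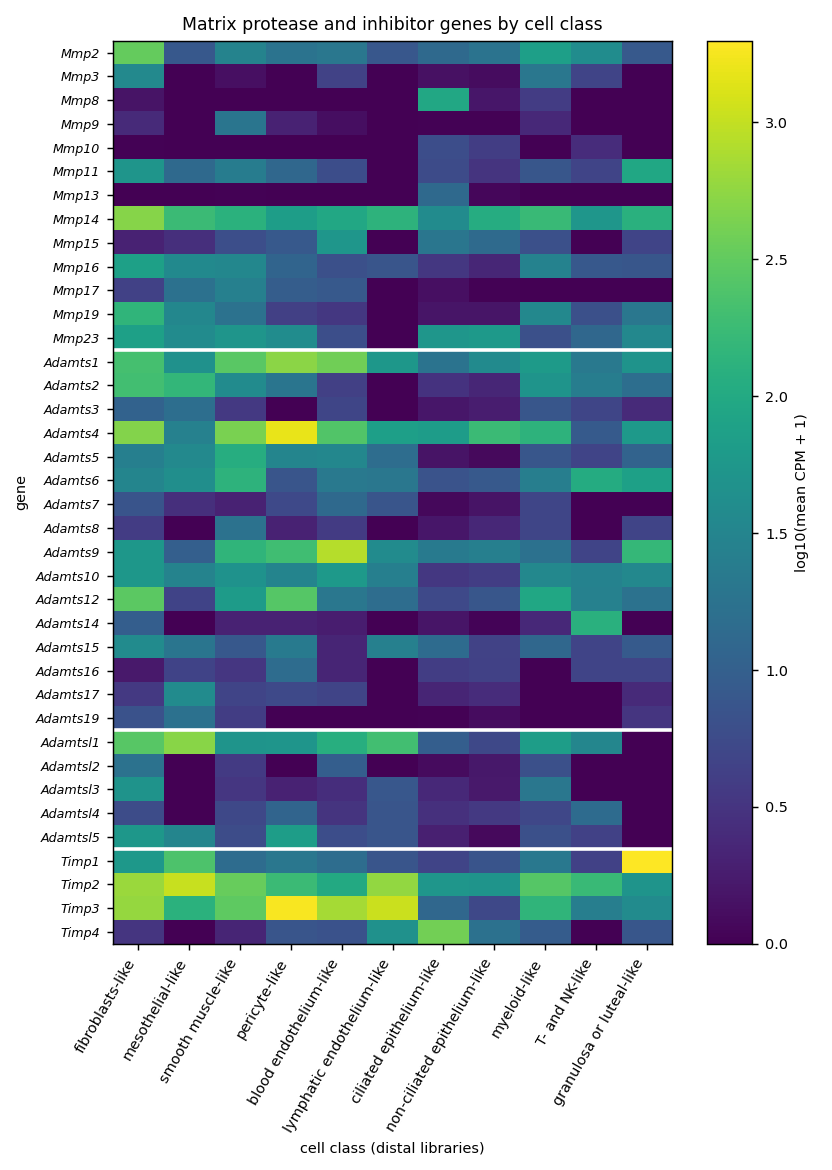
Colour gives log10(CPM + 1) of the mean over the distal libraries for each gene (rows, in the order Mmp, Adamts, Adamtsl, Timp) in each cell class (columns). Mmp8 and Timp4 stand out in the ciliated column (94.1 and 395 CPM), Adamts9 in blood endothelium (853 CPM), and Adamts4 and Timp3 in pericytes (1535 and 1826 CPM).

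The 4 inhibitors peaked in different classes. Timp2, which besides inhibiting Mmp enzymes helps Mmp14 to activate Mmp2, was spread over the stroma: in distal cells it averaged 1035 CPM in mesothelium, 623 ± 58.7 CPM in fibroblasts (SD, n = 3), 344 ± 34.5 CPM in smooth muscle and 50.3 ± 24.3 CPM in non-ciliated epithelium. Timp3, the inhibitor that binds to the matrix and also blocks several Adamts enzymes, was highest in pericytes, with 1627, 2214 and 1637 CPM in the 3 distal libraries, followed by lymphatic endothelium at 1079 CPM, blood endothelium at 711 ± 258 CPM and fibroblasts at 590 ± 146 CPM (SD, n = 3). Blood endothelium and fibroblasts did not differ in Timp3 beyond their spread, and the epithelium stood far below both, at 11.8 ± 2.81 CPM in ciliated and 4.24 ± 0.831 CPM in non-ciliated cells (SD, n = 3 each). Timp1 had its highest level in the granulosa- or luteal-like cells, found in distal libraries (1649, 2847 and 1451 CPM from 28, 18 and 14 cells), and averaged 237 CPM in mesothelium and 56.2 ± 10.3 CPM in fibroblasts (SD, n = 3).

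Timp4 was highest in ciliated epithelium. Distal ciliated cells held 448, 343 and 395 CPM in the 3 libraries, against 12.4, 15.3 and 19.9 CPM in distal non-ciliated epithelium, with no overlap between the classes. The log2 difference was 4.42 ± 0.25 (SE; edgeR quasi-likelihood test on summed counts, Benjamini-Hochberg adjusted p = 8.8e-21). A Timp4 UMI was found in 1314 of 2269 distal ciliated cells (57.9%), against 0.738% of distal fibroblasts, taken as the level of stray RNA. The median depths were 2425 and 3497 UMIs. Smooth muscle averaged 1.23 CPM and fibroblasts 2.27 CPM. Timp4 lies within Syn2, and Timp3 within Syn3, on the opposite strand, and the strand used in counting is not given in the sources used here. Syn2 itself was lower in ciliated (12.8 CPM) than in non-ciliated cells (26.7 CPM).

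**Figure D2:**
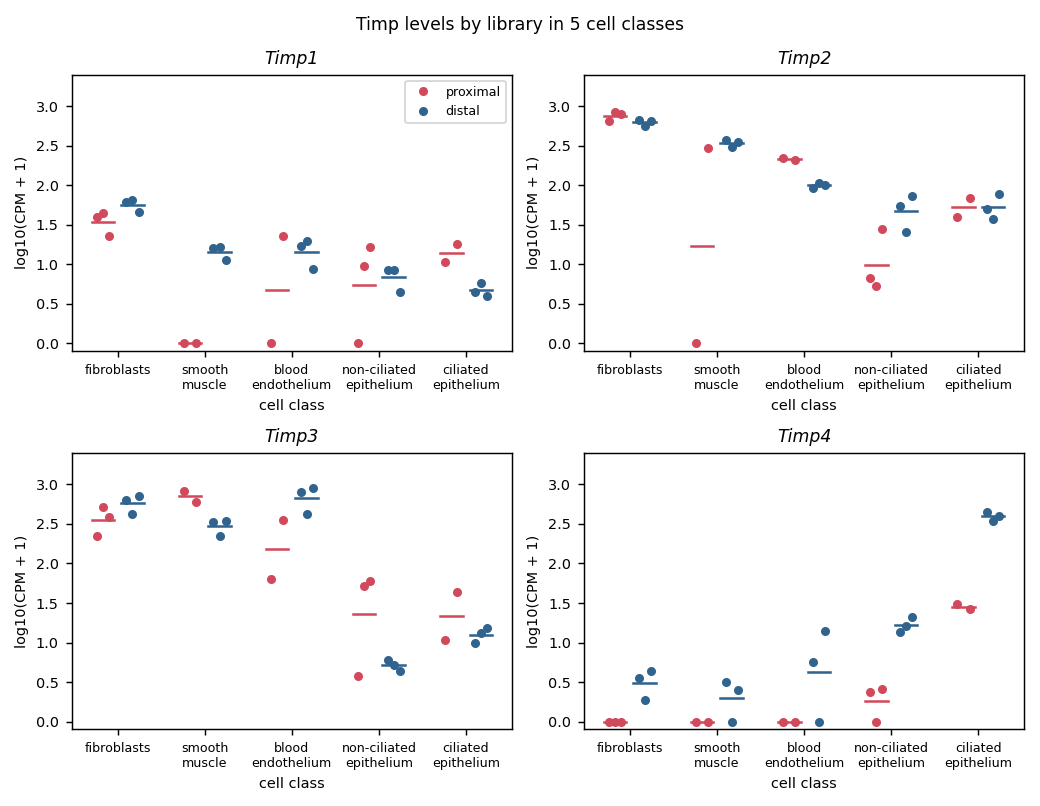
Each panel gives 1 Timp gene as log10(CPM + 1) by library (points; proximal left of distal in each class) with the mean of the log values (lines) in 5 classes. Timp2 and Timp3 run high in fibroblasts, muscle and endothelium, Timp4 runs high in distal ciliated cells (343 to 448 CPM) and is low in the 2 proximal libraries with at least 10 ciliated cells (29.3 and 25.6 CPM).

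A further set of ciliated genes came from a single neighbourhood. On chromosome 9 the RefSeq annotation (GRCm38.p6) lists 10 of the Mmp genes next to each other in the order Mmp13, Mmp12, Mmp1b, Mmp3, Mmp1a, Mmp10, Mmp8, Mmp27, Mmp20 and Mmp7, with 3 other loci between them. The stretch around the start of 5 of these genes is printed because they are neighbours with different cell patterns; each holds 130 bases before and 20 from the start, 5' to 3' on the + strand. The windows are chr9:7272384-7272533 for Mmp13, chr9:7445692-7445841 for Mmp3, chr9:7502212-7502361 for Mmp10, chr9:7558299-7558448 for Mmp8 and chr9:7691960-7692109 for Mmp7 (RefSeq, GRCm38.p6). Capitals mark matches to TGANTCA, the letters bound by AP-1, to TATAAA, the TATA box, and to GTTGCC, a half-site of the RFX factors that act in ciliated cells.
Mmp13: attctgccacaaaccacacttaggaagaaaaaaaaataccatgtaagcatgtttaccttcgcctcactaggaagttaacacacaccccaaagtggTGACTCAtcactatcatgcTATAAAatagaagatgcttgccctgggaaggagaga
Mmp3: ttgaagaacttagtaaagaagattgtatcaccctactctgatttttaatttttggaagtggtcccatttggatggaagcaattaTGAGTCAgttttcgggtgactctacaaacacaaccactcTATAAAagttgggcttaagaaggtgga
Mmp10: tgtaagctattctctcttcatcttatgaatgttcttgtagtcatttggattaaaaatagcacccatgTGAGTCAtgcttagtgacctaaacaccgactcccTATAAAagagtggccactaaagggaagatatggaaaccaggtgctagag
Mmp8: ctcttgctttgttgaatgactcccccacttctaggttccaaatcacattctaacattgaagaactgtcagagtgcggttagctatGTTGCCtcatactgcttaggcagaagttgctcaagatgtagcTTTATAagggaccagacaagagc
Mmp7: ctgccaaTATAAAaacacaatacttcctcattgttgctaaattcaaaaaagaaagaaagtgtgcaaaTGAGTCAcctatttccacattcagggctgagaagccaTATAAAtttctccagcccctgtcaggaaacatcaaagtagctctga
Matches were searched on both strands in 300-base promoters (250 before to 50 after the start), which RefSeq gives for 36 of the 51 genes, and none of the marked matches overlap. The TTTATA marked in Mmp8 is TATAAA read on the - strand, with its first printed base at -3 from the start. It is counted as a match by its letters only. TGANTCA was found in 7 of the 36, all in this neighbourhood, against 7.93% of the 27025 promoters of all genes. TATAAA was found in 11 of the 36, against 14.2% of all promoters, and GTTGCC in 4 (Mmp8, Mmp14, Mmp24 and Mmp25), against 12.7%. Of the 10 neighbours, Mmp8 held GTTGCC and no TGANTCA, and Mmp12 and Mmp27 held none of the 3 motifs. A match describes the letters and was not tested as a binding site.

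The neighbours were read in different cells. Mmp8, the collagenase known from neutrophils, had 129, 85.3 and 67.5 CPM in distal ciliated cells, against 0.382, 0.339 and 1.10 CPM in distal non-ciliated epithelium. Every ciliated value lay above every non-ciliated value (log2 difference 6.95 ± 0.32 SE, edgeR adjusted p = 1.4e-24). Mmp13, another collagenase, followed with 18.7, 13.8 and 5.25 CPM and 110 UMIs in distal ciliated cells, against 4 UMIs in non-ciliated cells (5.95 ± 0.52, edgeR adjusted p = 3.7e-14). Mmp27, a little-studied relative of the stromelysins, had 64 UMIs in distal ciliated cells and 3 in non-ciliated cells (5.43 ± 0.64, edgeR adjusted p = 3.7e-10). Mmp10, stromelysin 2, was found in both epithelial classes at 5.09 and 3.01 CPM and did not pass that test. Mmp7, matrilysin, was read in non-ciliated cells (54 distal UMIs) and not in 2269 distal ciliated cells. It was at least 7.65-fold lower there, taking 3 counts over the group as the floor. Mmp3, stromelysin 1, belonged to fibroblasts (34.3 ± 13.0 CPM, SD, n = 3). Mmp12, the macrophage elastase, belonged to myeloid cells, where distal library 1 held 54 of its 58 UMIs. Mmp1a, Mmp1b and Mmp20 had 0, 2 and 2 UMIs in all.

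Within the ciliated class the protease genes and the inhibitor were highest in different subclusters of distal cells. Subcluster E6, led by Wfdc12 and the axonemal gene Dnah12, had Mmp8 at 255, 232 and 325 CPM in the 3 distal libraries, Mmp13 at 47.6, 49.2 and 41.0 CPM and Mmp27 at 16.6, 30.5 and 24.9 CPM. Its Timp4 level was 183, 255 and 256 CPM. Subcluster E7, led by Dnah12, Rgs22 and Dnah5, had Timp4 at 761, 832 and 880 CPM, with Mmp8 at 41.9, 0 and 25.3 CPM and Mmp13 at 3.93, 0 and 1.49 CPM. No library of E7 reached the E6 level of Mmp8 or Mmp13, and no library of E6 reached the E7 level of Timp4. Subcluster E3, whose cells had a median depth 0.330 times that of their libraries, was high in both Timp4 (753 to 1047 CPM) and Mmp8 (130 to 319 CPM). These are descriptions of clusters and carry no test.

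**Figure D3:**
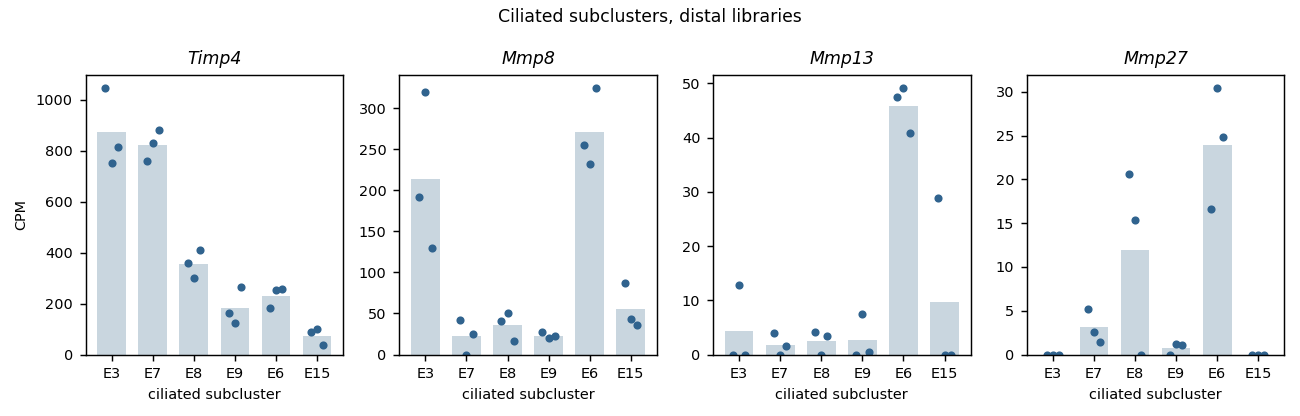
Bars are mean CPM and points the 3 distal libraries for Timp4, Mmp8, Mmp13 and Mmp27 in the ciliated subclusters (each axis starts at 0). Mmp13 and Mmp27 peak in E6 (mean 45.9 and 24.0 CPM), where Timp4 averages 231 CPM, against 824 CPM in E7.

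Set against non-ciliated epithelium in distal libraries, ciliated cells had 17 of the 28 genes tested past the threshold, 9 higher and 8 lower, where 58.9% of all genes tested passed (30.6% higher, 28.3% lower). Besides Mmp8, Mmp13, Mmp27 and Timp4 the higher genes were Adamts18 and Adamts15 (log2 differences 1.89 and 1.67), Timp3 (1.27), Mmp11, stromelysin 3 (0.89), and Adamtsl1 (0.77). Mmp11 overlaps Chchd10 on the opposite strand (3242 CPM in ciliated and 752 CPM in non-ciliated cells). Adamtsl1 overlaps Sh3gl2 on the same strand (33.6 and 15.3 CPM), and Timp3 lies opposite Syn3 (26.1 and 14.6 CPM). Each of these neighbours was thus higher in the same cells, and their part in these reads was not tested. Lower in ciliated cells were Mmp14, the membrane-bound collagenase that activates Mmp2, with 37.6 ± 17.5 CPM in ciliated and 108 ± 26.8 CPM in non-ciliated cells (SD, n = 3 each). Adamts4, an aggrecanase, was lower with 65.0 ± 36.2 CPM in ciliated and 176 ± 29.4 CPM in non-ciliated cells, and so were Adamts1, Adamts9, Adamts12, Mmp2, Mmp7 and Timp1. The median log2 difference was -0.21 over the 28 genes and 0.00 over all genes tested. Without distal library 1 or distal library 2, 11 genes passed. Cells were clustered before these tests, so here and in the class and subcluster comparisons below a p-value describes how sharply clusters differ and is no independent evidence of a cell type.

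Fibroblasts carried the broadest set of matrix proteases. Against non-ciliated epithelium in the distal libraries 30 of the 38 genes tested were higher in fibroblasts and 5 were lower, where 68.2% of all genes tested passed (34.2% higher, 34.1% lower). The median log2 difference was 3.72 over the 38 genes and 0.04 over all genes tested. Mmp2, gelatinase A, had 337, 237 and 405 CPM in fibroblasts, against 12.05, 29.2 and 9.23 CPM in non-ciliated epithelium. The classes did not overlap (4.35 ± 0.35 SE, edgeR adjusted p = 8.0e-09). Its activator Mmp14 had 626, 374 and 483 CPM in fibroblasts and 124, 77.3 and 124 CPM in non-ciliated epithelium. This difference was smaller, at 2.13 ± 0.18, since Mmp14 was also read in the epithelium. The steepest rises were those of Mmp19 (142 ± 34.3 and 0.518 ± 0.466 CPM in fibroblasts and epithelium, SD, n = 3 each, log2 difference 8.24), Adamtsl5 (7.72), the procollagen N-propeptidase Adamts2 (7.19), Timp3 (7.05), Mmp3 (6.89) and the aggrecanase Adamts5 (6.69). Adamts4 (484 ± 112 CPM in fibroblasts), Adamts12 (292 ± 67.3 CPM), Adamtsl1 (279 ± 56.5 CPM) and Adamts1 (210 ± 33.2 CPM) were among the other genes that rose. So were Adamtsl3 (48.9 ± 10.5 CPM in fibroblasts), Adamtsl5 (55.1 ± 4.24 CPM) and Adamtsl2 (16.4 ± 3.74 CPM), Adamts10 (55.2 ± 5.41 CPM), Adamts15 (37.8 ± 10.4 CPM), Adamts3 (9.97 ± 2.49 CPM), Mmp11 (51.7 ± 8.29 CPM) and the membrane-bound Mmp16 (72.9 ± 9.41 CPM). Lower in fibroblasts were Mmp15, a membrane-bound protease (1.05 ± 0.552 and 12.8 ± 4.91 CPM), Timp4, Mmp10, Adamts16 and Mmp7, which had no UMI in distal fibroblasts and was at least 17.7-fold lower there by the same floor.

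Smooth muscle had most of the tested genes lower than fibroblasts and a smaller set, with Adamts5, Adamts6 and Mmp9, higher. In the distal libraries 8 of 34 genes tested were higher in muscle and 20 lower, where 43.2% of all genes tested passed (21.1% higher, 22.1% lower). The median log2 difference was -1.14 over the 34 genes and -0.01 over all genes tested. Adamts5 had 138, 94.5 and 100 CPM in muscle, against 37.1, 20.7 and 19.7 CPM in fibroblasts, and all muscle values were higher (2.06 ± 0.13 SE, edgeR adjusted p = 8.7e-10). Adamts6, an Adamts enzyme related to Adamts10, had 146, 161 and 98.1 CPM in muscle and 35.0, 29.2 and 26.7 CPM in fibroblasts (2.09 ± 0.13). Mmp9, gelatinase B, had 20.4, 10.2 and 23.0 CPM in muscle and averaged 1.46 CPM in fibroblasts (3.57 ± 0.29). Mmp17, which is held to the membrane by a lipid anchor (26.2 ± 4.50 and 3.33 ± 1.83 CPM in muscle and fibroblasts), Adamts8, Mmp15, Adamts9 and Adamts1 rose as well. Mmp2, Mmp3, Mmp14, Mmp16, Mmp19, Mmp23, Timp1, Timp2 and Timp3 fell in muscle, Mmp2 to 28.6 ± 1.58 CPM, against 326 ± 84.6 CPM in fibroblasts (SD, n = 3 each).

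Blood endothelium was marked by Adamts9, a versican-cleaving enzyme, with 1057, 694 and 807 CPM, against 54.1, 37.6 and 71.3 CPM in fibroblasts. The endothelial values were all higher (3.74 ± 0.21 SE, edgeR adjusted p = 3.7e-67), and Adamts9 lies opposite the antisense transcript 9530026P05Rik. Without the counting strand the source of these reads cannot be assigned to 1 of them. Mmp15 had 52.5, 62.5 and 46.1 CPM in endothelium and averaged 1.05 CPM in fibroblasts (5.34 ± 0.43). Mmp28, or epilysin, had 29 UMIs in distal endothelium and 6 in the far more numerous fibroblasts (6.08 ± 0.81). Together with Adamts1 these 4 were the genes that rose among 34 tested, and 21 fell, where 41.7% of all genes tested passed (18.1% higher, 23.6% lower). The median log2 difference was -1.76 over the 34 genes and -0.14 over all genes tested. Pericytes, which wrap the small vessels, were not tested and had Adamts4 at 1800, 1683 and 1123 CPM and Adamts1 at 699, 399 and 495 CPM in the distal libraries, with 13 cells in distal library 2. Mesothelial cells had Adamtsl1 at 635 and 388 CPM and Adamts17, at 25.2 and 50.3 CPM, in the 2 distal libraries with at least 10 of them. Lymphocytes had Adamts14, a procollagen N-propeptidase, at 188, 221 and 257 CPM in the proximal libraries (2 UMIs in proximal library 3), against 124, 74.6 and 166 CPM in the distal libraries, a difference that was not tested, and Mmp25, a protease of leukocyte membranes, on 10 distal UMIs.

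Fibroblasts split into subclusters that carried different protease sets. Subcluster F1, led by Pi16 and Dkk2, had Mmp3 at 79.4, 65.5 and 85.8 CPM in the distal libraries, and its mean of 76.9 ± 10.3 CPM compared with 20.6 ± 9.58 CPM in the other fibroblasts (SD, n = 3 each; 1.95 ± 0.18 SE, edgeR adjusted p = 0.000176). Adamtsl3, Adamts14, Mmp19, Adamts15 and Mmp14 also rose in F1 (0.95, 0.95, 0.70, 0.58 and 0.42), while Adamts19 and Mmp23 fell, so 6 of 32 rose and 2 fell, where 4.28% of all genes passed (2.15% higher, 2.13% lower). Subcluster F2, led by Inmt and Tcf21, had more members of the sets higher than any other subcluster tested: 13 of 32 rose and 2 fell, where 14% of all genes passed (7.04% higher, 6.93% lower). Those that rose included Adamts19 (17.2 ± 6.32 and 2.98 ± 2.13 CPM in F2 and the other fibroblasts; 2.47 ± 0.28), a protease without a well-known substrate, Adamtsl2, a fibrillin-binding protein (1.55), Adamts5 (1.50), Mmp23 (1.29), Adamts6 (1.13) and Mmp11 (0.96), besides Adamts1, 7, 10 and 12, Adamtsl1, Mmp2 and Timp2. Timp3 fell in F2 to 329 ± 46.2 CPM, against 668 ± 189 CPM in the other fibroblasts, and so did Adamts14. Marker lists were scored by their mean log2 difference from the average over the fibroblast subclusters. In F2 smooth muscle markers scored 0.71 and fibroblast markers 0.13, under the 1.5 at which a subcluster was left out as mixed. The part of muscle RNA in the F2 set was not tested.

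Subcluster F3, which carried the pair Col7a1 and Etv1, ran the other way: 4 of 31 genes rose and 12 fell, where 13.3% of all genes passed (7% higher, 6.34% lower). Timp3 had 1085, 765 and 1080 CPM in F3, a mean of 977 ± 183 CPM, against 483 ± 107 CPM in the other fibroblasts (1.01 ± 0.07 SE, edgeR adjusted p = 8.4e-10). Mmp9 was read in F3 (29 UMIs; 5.95 ± 1.68 CPM) and hardly in the other fibroblasts (0.207 ± 0.276 CPM; 4.61 ± 0.67), and Adamts8 and Timp1 rose too. The falls were led by Adamtsl3 (-2.40), Adamts19 (-2.31), Mmp3 (-1.72), Adamts2 (-1.21) and Adamts12 (-1.16). By the score used for F2, smooth muscle markers stood at 0.15 and fibroblast markers at -0.22 in F3, and their part was not tested. Subcluster F7, led by Sntg1, Zfpm2 and C3 and made mostly of proximal cells, combined a rise of several proteases with the largest fall of Timp3 among the subclusters tested. In distal libraries Adamts19 averaged 69.9 ± 50.7 CPM in F7 and 5.30 ± 2.56 CPM in the other fibroblasts (3.46 ± 0.66, edgeR adjusted p = 1.4e-05), on 17 UMIs, and Timp3 fell to 160, 115 and 115 CPM, against a mean of 594 ± 148 CPM (-2.39 ± 0.27, edgeR adjusted p = 1.4e-15). Mmp3, Adamts5, Mmp23, Adamts12, Adamtsl1 and Adamts1 rose in F7 by 0.78 to 2.11, Mmp3 with 360, 115 and 38.3 CPM in the 3 distal libraries, so 7 of 29 rose and 1 fell, where 4.33% of all genes passed (1.51% higher, 2.82% lower). With any 1 distal library left out, 3 rose: Adamts5, Adamts1 and Mmp23 were lost each time, Adamts19 was lost without distal library 2 (2.87), Mmp3 without distal library 1 and Adamts12 without distal library 3, while Timp3 kept its fall. Adamts3, which trims procollagens, and Adamtsl4, which binds fibrillin, averaged 38.5 ± 16.5 and 22.3 ± 3.94 CPM in distal F7 cells (SD, n = 3 each), on 8 and 5 UMIs, and did not pass.

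In subcluster F4, led by Csmd2 and Nrxn3, Adamtsl3 rose (1.12 ± 0.14) and 8 of 31 genes fell, among them Mmp3, Mmp23, Mmp11, Adamts5 and Adamts6, where 3.34% of all genes passed (0.741% higher, 2.6% lower). Without distal library 2 the falls that passed were 3, those of Mmp3, Mmp23 and Mmp11. In the interferon-gene subcluster F10 Adamts2 fell (-1.26), 1 of 29 tested, where 1.08% passed (0.672% higher, 0.406% lower). That fall did not pass without distal library 1 (-0.84), without distal library 3 (-1.02) or with size factors by relative log expression (-1.02). Subclusters F5, F6 and F8 lacked enough cells in all 3 distal libraries for a test. F8, which carried the pair Apod and Sgcz and held 26, 66 and 178 proximal cells and 17, 11 and 8 distal cells, had Timp3 at 483, 801 and 702 CPM in the proximal libraries and 461 and 514 CPM in the 2 distal libraries with at least 10 cells.

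**Figure D4:**
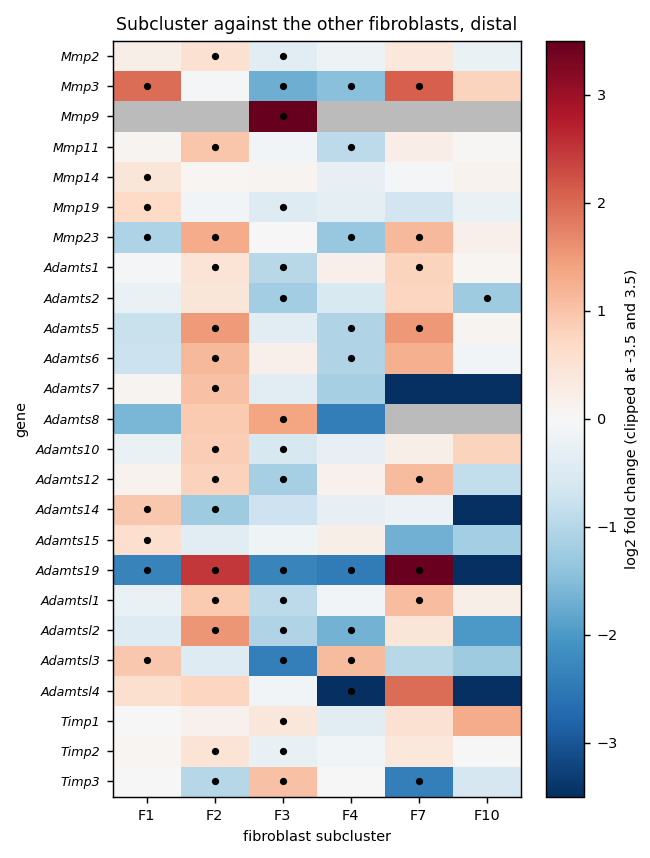
Colour gives the log2 fold change (edgeR, subcluster over the other fibroblasts of the distal libraries, clipped at -3.5 and 3.5) of the genes that passed in at least 1 of 6 fibroblast subclusters; dots mark adjusted p under 0.05 and grey marks genes not tested. F2 and F7 share the rise of Adamts19 (2.47 and 3.46) and the fall of Timp3 (-0.99 and -2.39), and F3 shows the rise of Timp3 (1.01) and Mmp9 (4.61).

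The proximal and distal sections were compared within each class, with libraries as replicates and the fold change given as proximal over distal. In fibroblasts 2 of 30 genes tested rose in proximal cells and 0 fell, where 2.94% of all genes tested passed (2.02% higher, 0.926% lower). Of the 30, 15 had an unadjusted p under 0.05, and DESeq2 called the same number, 2. The share of all genes with an unadjusted p under 0.05 was not taken, here or below. Such counts therefore cannot be read as a shift of these genes. Adamts19 had 35.0, 32.9 and 64.4 CPM in proximal fibroblasts, against 6.46, 8.21 and 2.89 CPM in distal fibroblasts. All proximal values were higher, by 2.79 ± 0.40 on the log2 scale (SE, edgeR adjusted p = 0.0093). Mmp17 had 14.0, 32.9 and 24.3 CPM in proximal and 1.88, 5.39 and 2.72 CPM in distal fibroblasts, again without overlap (2.36 ± 0.47, edgeR adjusted p = 0.0271). For each of these genes the 32.9 CPM of proximal library 3 stand for 3 UMIs. The adjusted p of Mmp17 was 0.0851 without distal library 1, 0.0866 without distal library 3, 0.0830 without proximal library 3 and 0.0520 without proximal library 4. Without proximal library 2, by contrast, 9 genes passed, 6 higher and 3 lower, where 1948 of the 14787 genes tested passed. The make-up of the fibroblasts differed too: F7, where Adamts19 was highest, held 110, 23 and 211 proximal cells and 21, 17 and 13 distal cells, and F3, where it was low, held 0 proximal and 1431 distal cells. Within the 5 subclusters that both regions share, with the subcluster as a term, the Adamts19 difference was 0.70 (edgeR adjusted p = 0.342), and Timp1 had -0.87 (adjusted p = 0.0492). That fit took 27 sums from 6 libraries as separate samples, so its p-values are too small. Inside F7 itself Adamts19 had 67.6, 118 and 123 CPM in proximal and 26.7, 126 and 57.4 CPM in distal cells, which overlap.

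Other fibroblast genes moved less and did not pass. Mmp23 had 162, 98.6 and 196 CPM in proximal and 78.9, 82.6 and 57.0 CPM in distal fibroblasts (1.00 ± 0.32, edgeR adjusted p = 0.118). Mmp3 had 14.8, 11.0 and 21.5 CPM in proximal and 48.5, 23.0 and 31.5 CPM in distal fibroblasts (-1.10 ± 0.36, adjusted p = 0.136), and the 2 regions did not overlap in either. In proximal library 3, where 3 counts stand for 32.9 CPM, the 11.0 CPM of Mmp3 lies below 3 counts. Timp3 had 223, 515 and 388 CPM in proximal and 633, 426 and 709 CPM in distal fibroblasts (-0.90 ± 0.33, adjusted p = 0.181). Mmp2 and Mmp14 split the proximal libraries: Mmp2 had 217, 603 and 886 CPM in proximal and 337, 237 and 405 CPM in distal fibroblasts, and Mmp14 had 353, 800 and 890 CPM in proximal and 626, 374 and 483 CPM in distal fibroblasts, so the regions overlap in both. The median log2 difference was 0.20 over the 30 genes and -0.03 over all genes tested. Markers of fibroblasts summed to 24340 to 28316 CPM in proximal and 19544 to 20985 CPM in distal fibroblasts, and smooth muscle markers to 560 to 1072 CPM in proximal and 694 to 1029 CPM in distal fibroblasts. Blood endothelium markers summed to 47.9 to 110 CPM in proximal and 24.3 to 27.6 CPM in distal fibroblasts, and T and NK markers to 7.39 to 43.8 CPM in proximal and 2.55 to 4.44 CPM in distal fibroblasts, with Cd3d, Trbc2 and Cd3g at 0 in all proximal libraries. Muscle markers overlapped between the regions, and the other 3 lists did not. The part of these markers in the results was not tested.

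In non-ciliated epithelium 5 of 19 genes tested differed, 2 higher and 3 lower in proximal cells, where 3.3% of all genes tested passed (2.44% higher, 0.861% lower). Mmp7 had 15.4, 21.5 and 10.9 CPM in proximal and 2.58, 2.88 and 1.10 CPM in distal cells, on 23 and 54 UMIs, with no overlap (2.65 ± 0.55 SE, edgeR adjusted p = 0.0317). Timp3 had 2.80, 51.6 and 59.3 CPM in proximal and 5.07, 4.24 and 3.41 CPM in distal cells. Proximal library 2 lay below all distal libraries while the other two lay above (2.83 ± 0.67, adjusted p = 0.0497). Proximal cells lay largely in subclusters with few distal cells, where Mmp7 was at 22.2 and 14.4 CPM in E13 of proximal libraries 3 and 4 and at 44.8 CPM in E16 of proximal library 2, and Timp3 was at 53.3 and 78.3 CPM in the same E13 cells and 4.48 CPM in E16. E13 held 82 cells of each of these 2 proximal libraries and 6 distal cells, E16 held 86 cells of proximal library 2 and 3 distal cells, and Serpina1e and Penk were among the leading genes of both. Lower in proximal cells were Timp4 (1.399, 0 and 1.56 CPM in proximal and 12.4, 15.3 and 19.9 CPM in distal cells), Mmp23 (8.39, 0 and 14.1 CPM in proximal and 56.7, 41.0 and 73.8 CPM in distal cells) and Adamts1 (1.399, 8.60 and 10.9 CPM in proximal and 43.1, 20.01 and 46.5 CPM in distal cells). None of these 3 overlapped between the regions, with log2 differences of -3.75 ± 0.67, -2.79 ± 0.56 and -2.64 ± 0.59 and edgeR adjusted p of 0.0208, 0.0294 and 0.0407. Timp4 rests on 2 proximal UMIs, and its pooled ratio of proximal over distal was 0.0800 with a 95% counting interval of 0.00965 to 0.291. Mmp23 and Adamts1 were highest in E4 (147 to 157 and 82.2 to 98.4 CPM in the distal libraries), a subcluster with 223, 62 and 416 distal cells and 1 proximal cell.

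These epithelial calls depended on the libraries, while the directions did not turn. With any 1 of the distal libraries, proximal library 3 or proximal library 4 left out, none of the 5 passed. The log2 differences in these fits were 2.33 to 2.94 for Mmp7, 1.95 to 3.02 for Timp3, -3.31 to -2.48 for Mmp23, -3.51 to -2.44 for Adamts1 and -3.95 to -3.52 for Timp4, which was not tested without distal library 2 or distal library 3. Without proximal library 2, 12 genes passed, these 5 among them, where 3229 of the 14623 genes tested passed. Several marker lists separated the regions: ciliated markers summed to 60.2 to 112 CPM in proximal and 179 to 246 CPM in distal non-ciliated cells. Erythroid markers (116 to 1546 and 2882 to 8086 CPM), epithelial markers (4327 to 5386 and 5399 to 6502 CPM) and lymphatic markers (353 to 400 and 460 to 604 CPM) were also lower in proximal cells. So were mast cell markers (17.2 to 45.3 and 49.3 to 75.8 CPM), while T and NK markers were higher (16.8 to 47.3 and 7.46 to 13.5 CPM). Secretory markers summed to 3652 to 15680 CPM in proximal and 13537 to 19816 CPM in distal cells, which overlap. Pericyte markers overlapped as well, at 11.2 to 103 CPM in proximal and 13.7 to 31.5 CPM in distal cells, with Kcnj8, Cspg4 and Higd1b at 0 in all proximal libraries. The part of these markers in the results was not tested.

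In ciliated cells 1 of 20 genes tested passed, Timp4, which fell, where 1.12% of all genes tested passed (0.63% higher, 0.486% lower). Timp4 had 29.3 and 25.6 CPM in proximal libraries 2 and 4, 3 UMIs in each, against 448, 343 and 395 CPM in the distal libraries (-3.95 ± 0.55 SE, edgeR adjusted p = 0.0206). The regions lay far apart, but without proximal library 4 the call was lost (-3.76, adjusted p = 0.0767), and proximal library 3 had 7 ciliated cells and did not enter. Mmp8 had 29.3 and 25.6 CPM in proximal and 129, 85.3 and 67.5 CPM in distal ciliated cells, without overlap (-1.87 ± 0.58, adjusted p = 0.140). Mmp13 and Mmp27 had no UMI in proximal ciliated cells. In these libraries 3 counts stand for 25.6 to 29.3 CPM, above their distal means of 12.6 and 7.11 CPM, so a difference was not detectable at this depth. The proximal cells lay in subclusters E15 (21 and 3 cells of proximal libraries 2 and 4) and E18 (28 cells of proximal library 4), and ciliated markers summed to 4126 to 6254 CPM in proximal and 7102 to 9269 CPM in distal cells. In E15 Timp4 was 16.8 CPM (1 UMI) in proximal library 2 and 86.8, 98.7 and 35.5 CPM in the distal libraries, and the part of the subclusters in the result was not tested. The median log2 difference was -0.10 over the 20 genes and -0.24 over all genes tested.

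Smooth muscle gave the most calls, from the fewest proximal UMIs: 16983 in proximal library 3 and 64310 in proximal library 4, from 29 and 45 cells, against 151 to 1248 cells in the distal libraries. Different clusters held most of the muscle in the 2 regions. Cluster c18, led by Ctnna3 and Mustn1 and with the pericyte marker Rgs5 among its leading genes, held 26 and 38 proximal cells and 130, 5 and 23 distal cells, and c3, led by Actg2 and Myh11, held 3 and 7 proximal cells and 1118, 146 and 388 distal cells. Of 23 genes tested 5 rose and 1 fell in proximal muscle, where 12.8% of all genes tested passed (4.82% higher, 7.98% lower). Adamts5 had 353 and 482 CPM in proximal and 138, 94.5 and 100 CPM in distal muscle (1.58 ± 0.37 SE, edgeR adjusted p = 0.000567). Adamtsl1 had 294 and 249 CPM in proximal and 63.3, 33.2 and 55.0 CPM in distal muscle (1.91 ± 0.44, adjusted p = 0.000491). Adamts8, a protease with anti-angiogenic activity, had 177 and 93.3 CPM in proximal muscle, on 3 and 6 UMIs, and 20.4, 15.3 and 14.1 CPM in distal muscle (2.29 ± 0.67, adjusted p = 0.0093). Adamts2 had 58.9 and 171 CPM in proximal and 29.6, 47.3 and 35.7 CPM in distal muscle (1.65 ± 0.55, adjusted p = 0.0283), and Adamts1 had 883 and 684 CPM in proximal and 339, 194 and 305 CPM in distal muscle (0.99 ± 0.36, adjusted p = 0.0463). Adamts4 fell, with 236 and 202 CPM in proximal and 483, 411 and 380 CPM in distal muscle (-1.41 ± 0.45, adjusted p = 0.0213). The regions did not overlap for any of the 6. In proximal libraries 3 and 4, however, 3 counts stand for 177 and 46.6 CPM. The 58.9 CPM of Adamts2 in proximal library 3 thus lies below 3 counts. These folds are scaled to the trimmed mean, by which the median of all genes tested was -0.47 and that of the 23 genes was -0.03. Relative to that median gene the rises would be larger and the fall of Adamts4 smaller. The median is no firm baseline, since with distal sums thinned to proximal depth it was -0.05 over the 854 genes tested.

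Each muscle call but that of Adamts5 was lost when either proximal library was left out, which assumes that the lone proximal sample varies like the distal ones; Adamts5 passed without proximal library 3 (1.64, edgeR adjusted p = 0.0370) and not without proximal library 4 (0.50). Without proximal library 4 Adamts2 turned to -0.41 and Timp2, with no UMI in proximal library 3, was the gene that passed, as lower in proximal muscle (adjusted p = 0.0299). Leaving out distal libraries also ended calls: that of Adamts1 (adjusted p = 0.0785 without distal library 2 and 0.0789 without distal library 3), of Adamts4 (0.0857 without distal library 1 and 0.0554 without distal library 3) and of Adamts2 (0.0811 without distal library 1). With size factors by relative log expression Adamts1 no longer passed (0.88). Pericyte markers summed to 1182 to 1413 CPM in proximal and 331 to 475 CPM in distal muscle, while Kcnj8 and Abcc9, both pericyte markers, were at 0 in both proximal libraries. Fibroblast markers summed to 942 to 4043 CPM in proximal and 1832 to 2976 CPM in distal muscle. Ciliated markers were higher in proximal muscle (264 to 648 CPM, with 9 of 10 at 0 in both libraries) than in distal muscle (157 to 215 CPM). Epithelial markers (0 to 93.3 CPM in proximal and 154 to 243 CPM in distal muscle), secretory markers (118 to 218 and 347 to 791 CPM) and mesothelial markers (58.9 to 77.7 and 229 to 335 CPM) were lower in proximal muscle. The part of the 2 clusters and of these markers in the result was not tested.

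In blood endothelium 0 of 8 genes tested passed with edgeR, where 8.62% of all genes tested did (3.87% higher, 4.76% lower). Of the 8, 2 genes, Timp2 and Timp3, had an unadjusted p under 0.05, and DESeq2 called 1, Timp3 (-1.73, adjusted p = 0.0364). Timp3 had 63.2 and 357 CPM in proximal and 807, 419 and 907 CPM in distal endothelium (-1.56 ± 0.48 SE, edgeR adjusted p = 0.0597). In proximal library 3, where 3 counts stand for 94.8 CPM, the 63.2 CPM of Timp3 lies below 3 counts. Timp2 had 221 and 206 CPM in proximal and 90.0, 106 and 100 CPM in distal endothelium (1.06 ± 0.35, adjusted p = 0.0792). Neither gene overlapped between the regions. Adamts9, the leading endothelial gene, had 664 and 920 CPM in proximal and 1057, 694 and 807 CPM in distal cells, which overlap (-0.15 ± 0.28). Timp3 passed without distal library 2 (-1.80, adjusted p = 0.0212). Pericyte markers, whose class has the highest Timp3, summed to 0 to 43.3 CPM in proximal and 194 to 487 CPM in distal endothelium, with 5 of 8 at 0 in both proximal libraries. The endothelial clusters were not shared evenly either: c19, led by Selp, Aqp1 and Flt1, held 28 and 48 proximal cells and 83, 10 and 44 distal cells, and c13, led by Flt1 and Ly6c1, held 6 and 8 proximal cells and 183, 19 and 112 distal cells. The part of these markers and clusters in the result was not tested.

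**Figure D5:**
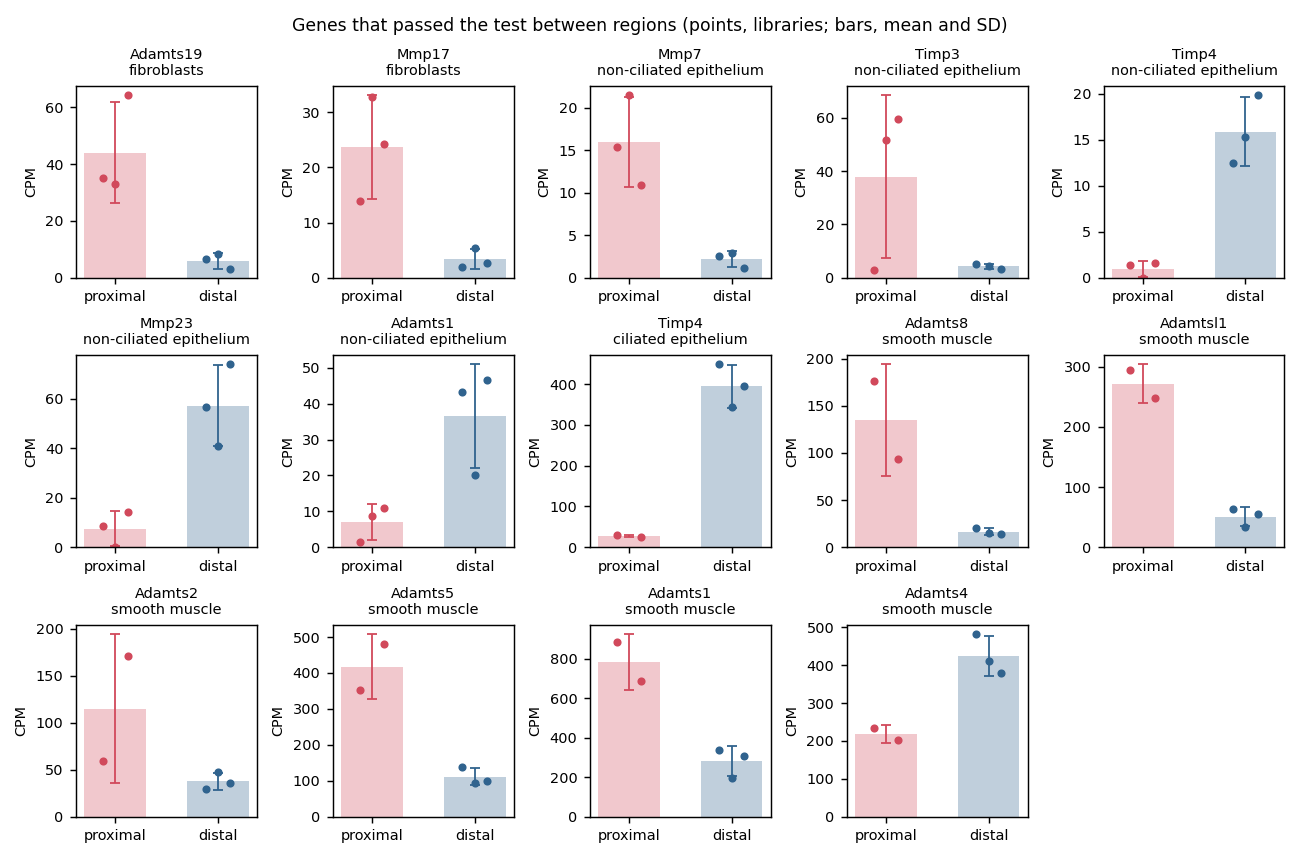
Each panel gives CPM by library (points) with mean and SD (bars, axes from 0) for the genes that passed between regions, proximal left of distal. Adamts19 in fibroblasts lies at 32.9 to 64.4 CPM in proximal and 2.89 to 8.21 CPM in distal libraries, and Timp3 in non-ciliated epithelium shows 1 proximal library at 2.80 CPM beside 51.6 and 59.3 CPM.

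The regional difference of 5 genes, Mmp23, Timp3, Adamts1, Adamts6 and Timp2, itself differed between classes when the class-by-region term was tested, a test chosen after seeing the data. Of 36 genes 5 passed between non-ciliated epithelium and fibroblasts, where 2.21% of all genes did, and 5 of 31 passed between muscle and fibroblasts, where 5.52% of all genes did.

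Other genes of matrix turnover were followed in 7 lists of 112 genes. In proximal fibroblasts, where 2.94% of all genes tested passed (2.02% higher, 0.926% lower), the plasminogen list had 0 genes higher and 2 lower of 5 tested, the tissue activator Plat (127 ± 61.7 and 317 ± 74.3 CPM in proximal and distal cells, SD, n = 3 each; -1.52) and its inhibitor Serpine2 (-1.86). Among other secreted proteases 2 of 12 fell, Tll2 (-3.35) and Htra3 (-1.33), and of 17 fibrillin microfibril genes Ltbp4 (1.61) and Fbln5 (1.31) rose. Cst3, the secreted inhibitor of cathepsins, fell to 826 ± 50.2 CPM in proximal fibroblasts, against 2526 ± 403 CPM in distal fibroblasts. Of 17 matrix substrates 1 fell, Lama1 (-2.13), of 15 regulators 1 fell, Runx1 (-2.41), and of 10 membrane Adam proteases 0 passed.

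In proximal non-ciliated epithelium, where 3.3% of all genes tested passed (2.44% higher, 0.861% lower), the secreted proteases Prss23 (2.23) and Tll1 (3.31) rose, 2 of 9 tested, as did 1 of 8 membrane Adam proteases, Adam33 (2.11). Among 9 other inhibitors and matricellular genes Papln (3.56) and Spock1 (3.75) rose and Sparc (-2.95) fell, 1 of 12 matrix substrates fell, Fn1 (-2.45), 1 of 7 microfibril genes fell, Loxl1 (-3.61), and 1 of 15 regulators rose, the progesterone receptor gene Pgr (1.68); 0 of 5 plasminogen genes passed. In ciliated cells, where 1.12% of all genes tested passed, Adam33 (3.91) rose, 1 of 9 Adam proteases, and Fosl2 (2.06), 1 of 13 regulators, with 0 called in the other 5 lists.

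In proximal muscle, where 12.8% of all genes tested passed (4.82% higher, 7.98% lower), 3 of 15 matrix substrates rose, the collagen IV genes Col4a1 (2.07) and Col4a2 (1.86) and elastin, Eln (2.20), and 3 fell. Of 11 inhibitors and matricellular genes Thbs1 rose to 1748 ± 474 CPM in proximal muscle (SD, n = 2), against 84.0 ± 23.8 CPM in distal muscle (SD, n = 3), and Spock2 fell (-3.16). Serpine2 rose (3.58) and Plat fell (-1.67) among 4 plasminogen genes, Prss23 rose (4.25) and Htra3 (-4.33) and Ctsl (-1.96) fell among 8 secreted proteases, and 1 of 7 Adam proteases, Adam15, rose (1.63). Of 15 microfibril genes 1 rose, Lox (2.20), and 2 fell, Mfap4 (-2.49) and Mfap2 (-2.79); of 12 regulators 3 rose, among them the AP-1 subunit gene Fosl2 (1.92), and 2 fell, among them Pgr (-2.03). In blood endothelium, where 8.62% of all genes tested passed (3.87% higher, 4.76% lower), Fosl2 rose as well (1.65) and Tgfb1 fell (-1.81) among 12 regulators, Thbs1 rose (4.26) and Sparc (-1.83) and Spock2 (-3.69) fell among 5 inhibitors and matricellular genes, Vwf (1.83), itself a leading gene of c19, and Eln (1.51) rose among 13 matrix substrates, and Tll1 (2.94) rose, 1 of 6 secreted proteases.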

How the data were processed

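The authors deposited filtered droplet matrices of 6 libraries, made with Cell Ranger 6.1.2 and the mm39 build per the submitters' processing notes; the matrices' headers name cellranger 7.0.0. The deposited values are raw UMI counts per gene and cell, and the strand used in counting is not given in the sources used here. Per the labels' protocols, each library pooled 1 tubal section of several mice; the labels do not say whether pools of different libraries came from separate mice, so p-values measure the spread between libraries.

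A cell was kept if its UMIs numbered 500 or more, its genes 250 or more and its mitochondrial share 20% or less, and doublets called by Scrublet at 0.8% per 1000 cells were removed. Cells were clustered with scanpy 1.11.5 and leidenalg 0.10.2 (2000 variable genes, 30 components, 15 neighbours, resolution 1; epithelium and fibroblasts again with 20 components), without the 51 genes, the pathway lists and mitochondrial, ribosomal and globin genes; 3 mixed subclusters were left out. Counts were summed per library and class where a library held at least 10 of its cells. Sums were tested with edgeR 4.0.16 in R 4.3.3 (quasi-likelihood test, trimmed-mean scaling, filterByExpr with 10 counts, Benjamini-Hochberg over all genes tested, threshold 0.05), with the library as a block between classes. SE is the log2 fold change over the square root of F. Printed CPM are plain, while fold changes are scaled. Counting intervals are exact at 95% and cover counting error only. The script was tested on simulated data.

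The genes and lists were chosen with earlier results of these data known. Every gene called between regions, every gene with a distal mean of at least 20 CPM in fibroblasts, their subclusters, epithelium, muscle or blood endothelium, and the 4 Timp genes were named with values; other genes are given by name and count, and at most 3 genes per pathway list by smallest p. DESeq2 1.42.0, other size factors, no filter on low counts, thinning of distal sums, left-out libraries, the title number as a block and subclusters held by both regions were tried as alternatives; the test between classes and a term for title number 2 were chosen after seeing the data. Promoters come from RefSeq on GRCm38.p6 and gene overlaps from GENCODE vM21, another build than the counts, so no coordinates were joined to them.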

Additional observations from a re-analysis of the deposited data

Results flagged for a closer look

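The regional difference of 5 genes was itself different between cell classes, by a test of the class-by-region term (edgeR, chosen after seeing the data); no explanation was tested. Non-ciliated epithelium and fibroblasts differed in 5 of 36 genes tested, where 2.21% of all genes passed, with 11 of the 36 at an unadjusted p under 0.05. Muscle and fibroblasts differed in 5 of 31, where 5.52% passed, with 12 at an unadjusted p under 0.05. Both tests share the fibroblast sums, so they are not independent. The share of all genes with an unadjusted p under 0.05 was not taken, so those counts have nothing to be set against.

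Mmp23 averaged 7.48 ± 7.07 CPM in proximal and 57.2 ± 16.4 CPM in distal non-ciliated epithelium, and 152 ± 49.4 CPM in proximal and 72.9 ± 13.9 CPM in distal fibroblasts (SD, n = 3 each). The epithelial log2 difference minus the fibroblast one was -4.00 ± 0.52 (SE, edgeR adjusted p = 0.000209). In muscle Mmp23 had 58.9 CPM (1 UMI) and 0 CPM in the 2 proximal libraries and 51.0 ± 9.33 CPM in distal libraries, so the proximal values lie on both sides of the distal ones, a difference from fibroblasts of -3.57 ± 0.97 (adjusted p = 0.0075).

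Timp3 averaged 37.9 ± 30.7 CPM in proximal and 4.24 ± 0.831 CPM in distal non-ciliated epithelium, 715 ± 154 CPM in proximal (n = 2) and 301 ± 66.1 CPM in distal muscle, and 375 ± 146 CPM in proximal and 590 ± 146 CPM in distal fibroblasts. The differences from fibroblasts were 3.34 ± 0.61 for epithelium (edgeR adjusted p = 0.00458) and 1.32 ± 0.32 for muscle (adjusted p = 0.00176).

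Adamts1 averaged 6.98 ± 4.97 CPM in proximal and 36.5 ± 14.4 CPM in distal non-ciliated epithelium, 784 ± 141 CPM in proximal and 280 ± 75.7 CPM in distal muscle, and 220 ± 10.1 CPM in proximal and 210 ± 33.2 CPM in distal fibroblasts. The differences from fibroblasts were -2.74 ± 0.60 for epithelium (edgeR adjusted p = 0.0170) and 1.05 ± 0.32 for muscle (adjusted p = 0.0210).

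Adamts6 had 1 UMI in proximal non-ciliated epithelium (0.521 ± 0.902 CPM) and 7.44 ± 2.75 CPM in distal cells, 177 and 31.1 CPM in proximal muscle (3 and 2 UMIs) and 135 ± 32.9 CPM in distal muscle, and 53.2 ± 15.9 CPM in proximal and 30.3 ± 4.23 CPM in distal fibroblasts. The differences from fibroblasts were -4.52 ± 0.95 for epithelium (edgeR adjusted p = 0.0133) and -2.50 ± 0.61 for muscle (adjusted p = 0.00165). For epithelium the pooled ratio of proximal over distal was 0.0802, with a counting interval of 0.00202 to 0.452.

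Timp2 averaged 12.1 ± 12.5 CPM in proximal and 50.3 ± 24.3 CPM in distal non-ciliated epithelium, 0 and 295 CPM in the 2 proximal and 344 ± 34.5 CPM in the distal muscle libraries, and 759 ± 101 CPM in proximal and 623 ± 58.7 CPM in distal fibroblasts. The differences from fibroblasts were -2.31 ± 0.54 for epithelium (edgeR adjusted p = 0.0267) and -1.26 ± 0.39 for muscle (adjusted p = 0.0247).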

How the results depend on the processing

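Depth limits the proximal values: proximal muscle held 16983 and 64310 UMIs and proximal ciliated cells 102339 and 117302. Between regions the fibroblast count of 2 became 7 with no filter on low counts, 1 with distal sums thinned to proximal depth, 1 with subclusters of both regions, 11 with the term for title number 2, and 1 to 9 with 1 library left out. The non-ciliated count of 5 became 10 with no filter, 8 with DESeq2, 9 with the term for title number 2, 1 thinned (of the 5 genes, Timp3, Mmp7 and Timp4 were not tested there) and 0 to 12 with 1 library left out. It was 0 within shared subclusters, where none of the 5 had enough counts to be tested, so that fit says nothing of them. Counts over all genes rose too. Without proximal library 2, 1948 of 14787 genes passed in fibroblasts and 3229 of 14623 in non-ciliated cells. With the term for title number 2 these were 1505 of 14382 and 1732 of 13895. The ciliated count of 1 became 2 with no filter and 2 with DESeq2, and 0 to 1 with 1 library left out; the muscle count of 6 became 3 with no filter and 1 to 6; the endothelial count of 0 became 1 with no filter, with DESeq2 and thinned, and 0 to 1. Ciliated against non-ciliated cells gave 17, and 11 with DESeq2, 10 with no replicate block and 11 to 15 with 1 library left out. Adamts2 in muscle reversed without proximal library 4 (-0.41) and ranged up to 1.87 with 1 library left out. Over the genes called between regions 89 of 142 settings kept the call, 52 lost it and 1 reversed it. Over classes and subclusters 917 kept it and 86 lost it. Settings in which a gene was not tested enter none of these counts, and the cause of the losses was not tested.

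The title numbers 2 and 3 occur in both regions, and the descriptions carry the same number as the titles for number 2 in both regions but not for number 3, so the numbers were not taken to pair samples. Deviations of same-numbered fibroblast sums correlated at 0.372 and 0.131, those of non-ciliated sums at 0.573 and 0.332. With the replicate block 1 fibroblast gene passed, Adamts19 (2.24, edgeR adjusted p = 0.000641), while Mmp17 did not (1.69, adjusted p = 0.149). In non-ciliated cells 5 genes passed, Timp2 in place of Timp3 (1.93). By title number no block was possible in ciliated cells, muscle and blood endothelium, where fewer than 2 title numbers are shared. A block by the numbers in the descriptions was not run. Distal library 3 and proximal library 4, which differ in title number, correlated at 0.0282 in fibroblasts and 0.378 in non-ciliated cells.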
